A study of Mus musculus with 18 samples.

Results

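The genes of iron export, uptake and storage were followed in primary mouse embryonic fibroblasts, the connective-tissue cells grown from embryos. The 9 genes were Slc40a1, Tfrc, Slc11a2, Fth1, Ftl1, Aco1, Ireb2, Cp and Slc39a14, named as genes of this pathway because Slc40a1 was selected on its 10 h values on these arrays, where it is among the largest falls after TGF-β1. Of 45101 probe sets on the Affymetrix arrays, 30 carried 1 of these genes as their single symbol, and they represented 8 of the 9 genes. Ftl1 was named on 3 probe sets together with other genes, so no value is given for it. Each gene was read from the probe set with its highest 18-array mean. All 8 passed the filter on dim probe sets and were among 13679 genes tested.

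Iron enters most cells as transferrin, which the transferrin receptor carries into endosomes, where the divalent metal transporter moves the released iron into the cytosol. Iron that is not used is stored in ferritin or leaves through ferroportin, the product of Slc40a1 and the one known iron exporter of mammalian cells. The RNA-binding proteins encoded by Aco1 and Ireb2 sense iron and act on several of these mRNAs after transcription. For some of these mRNAs the protein amount can change while the mRNA level does not. Arrays measure the mRNA alone.

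Cultures came from 3 embryos labelled as NFI-C knock-outs (KO, lacking the transcription factor nuclear factor I-C) and from 3 wild-type embryos (WT), all taken at 14 days with head and liver removed. Cells were left untreated (0 h) or given 12.5 ng/ml of TGF-β1 for 1 h or for 10 h. Cultures that share a genotype and a number in their titles were taken as coming from the same embryo. The design held 6 groups of 3 arrays and 18 arrays in all. All cultures first stood for 4 to 6 h in medium with an albumin supplement and a mix of insulin, transferrin and selenium, so transferrin had been supplied to every group. Untreated cells were compared at 0 h alone, so the 10 h values set TGF-β1 and time in culture together against untreated cells. Which portion of Nfic is missing in the KO embryos is not given in the labels.

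Values are log2 expression after RMA, and differences are log2 fold changes ± standard error from limma, n = 3 embryos per group. Arrays of the same group correlated at 0.980 to 0.994. The brightest Nfic probe set read 9.89 to 10.72 on the KO arrays and 10.19 to 10.77 on the WT arrays, so it did not set the genotypes apart, and they are given as labelled. Of 10 fibroblast markers Col1a1 lay between 13.61 and 14.03 on all arrays and Pdgfrb between 11.19 and 11.79. Lum ran lower, from 7.22 to 9.86, and Dcn from 8.33 to 9.66. Pdgfra was the most variable of the 10, between 5.48 and 9.70. The 10 h arrays labelled WT embryo 2 and 3 stood closer to the untreated array of the other embryo. Deviations from the group means correlated at 0.382 between the 10 h array 2 and untreated embryo 3 and at 0.439 between the 10 h array 3 and untreated embryo 2, against -0.06 and -0.20 for the labelled pairs. Group means do not depend on this order, but changes per embryo in WT do.

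Slc40a1, the iron exporter gene, was low at 10 h in both genotypes, and at 1 h it lay within or below the range of untreated values. In KO cells it read 8.77, 8.73 and 9.10 untreated, 8.24, 8.37 and 8.78 after 1 h, and 5.64, 5.20 and 5.67 after 10 h. In WT cells it read 8.65, 8.97 and 8.61 untreated, 8.28, 8.67 and 8.24 after 1 h, and 5.03, 5.14 and 5.61 after 10 h. Each of the 6 arrays at 10 h lay below each of the 12 arrays at 0 h and 1 h. The 10 h difference was -3.36 ± 0.19 in KO and -3.48 ± 0.19 in WT, or 10.3-fold and 11.2-fold lower than untreated cells. It ranked number 4 among the falls of all tested genes in each genotype. Because this change chose the gene, it is given as a description with no test. The second Slc40a1 probe set read 5.17 at 10 h against 8.17 untreated in KO (-2.99 ± 0.29), and 4.75 against 8.15 in WT (-3.40 ± 0.29).

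**Figure D1:**
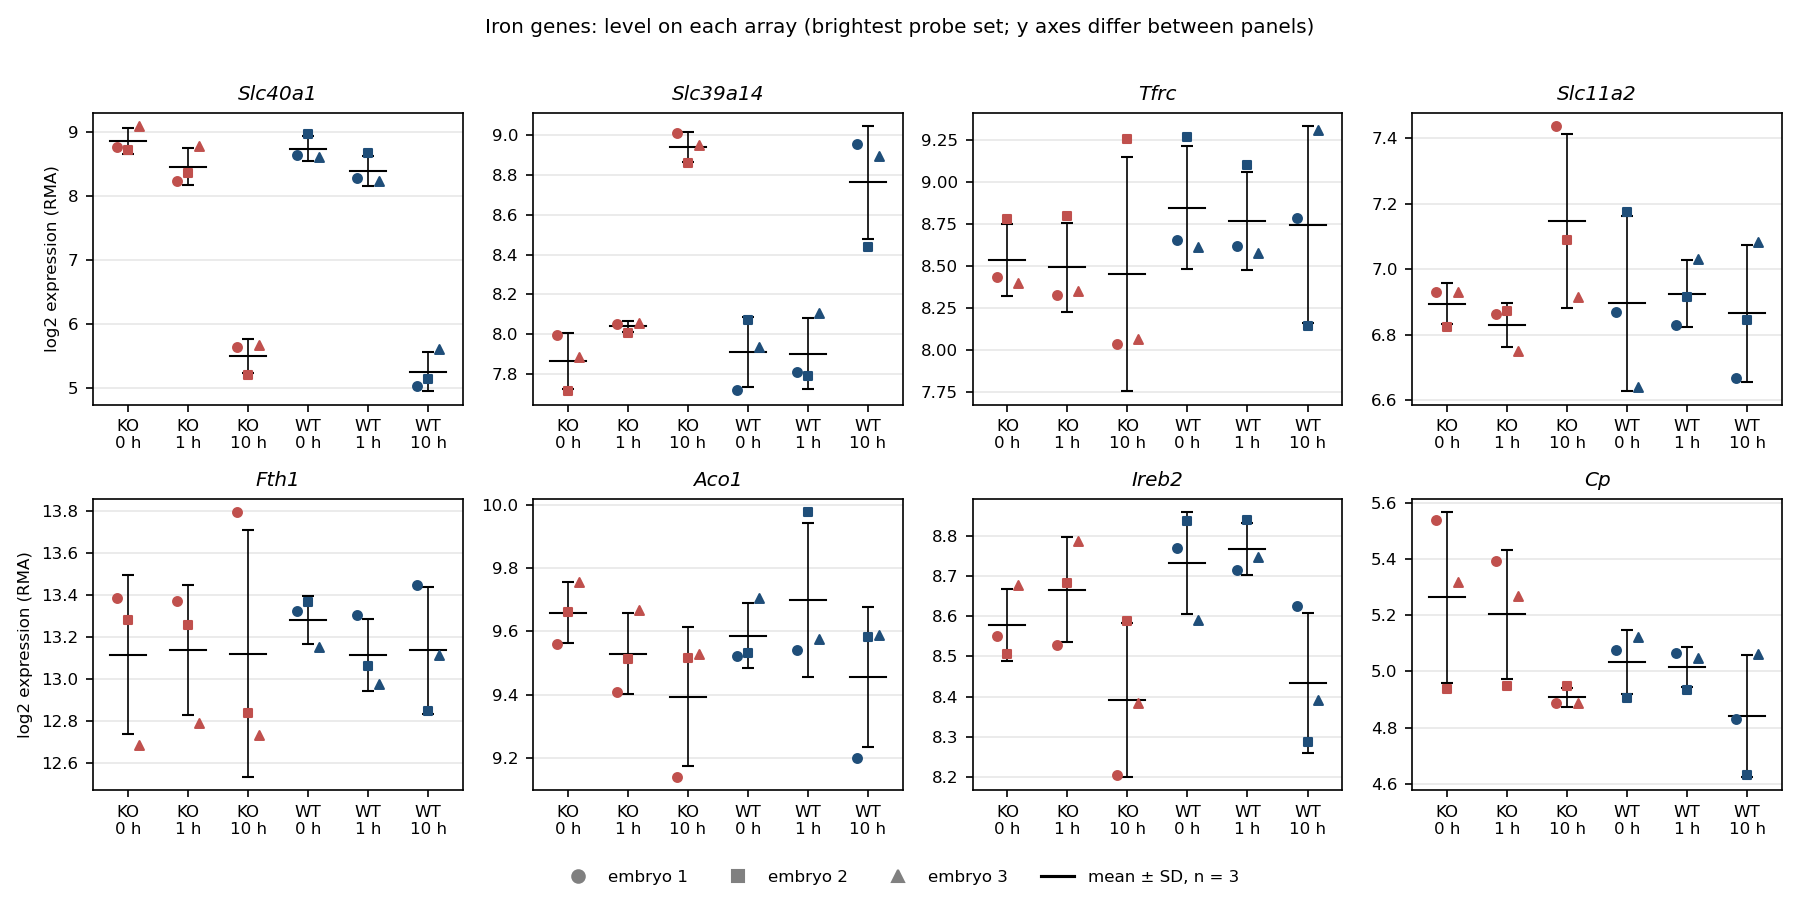
Level of the 8 measured genes on each array as log2 expression, in KO and WT cells at 0 h, 1 h and 10 h of TGF-β1, with points for embryos and bars for the mean ± SD (n = 3). Slc40a1 lay between 5.03 and 5.67 on the 10 h arrays and above 8 on all others, and Slc39a14 lay above 8.4 at 10 h, while the groups of the other 6 genes overlapped in most comparisons with untreated cells.

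The 1 h comparison was not used to choose Slc40a1, but it shares the untreated arrays with the 10 h one. At 1 h Slc40a1 was lower than in the untreated culture of the same embryo in 6 of 6 embryos. The changes were -0.53, -0.36 and -0.31 in KO embryos and -0.37, -0.30 and -0.37 in WT embryos. The groups overlapped, and the differences of -0.40 ± 0.19 in KO and -0.35 ± 0.19 in WT did not pass the test (limma adjusted p = 1.00 and 0.806). With embryo as a fixed block they did not pass either (0.755 and 0.510). Their 95% confidence intervals ran from -0.80 to 0.001 in KO and from -0.75 to 0.06 in WT.

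Between the genotypes Slc40a1 differed, KO minus WT, by 0.12 ± 0.19 untreated and 0.07 ± 0.19 after 1 h (limma adjusted p = 1.00 and 0.982). After 10 h the difference was 0.24 ± 0.19. The order of the group means was KO untreated (8.87 ± 0.20, SD), WT untreated (8.74 ± 0.20), KO 1 h (8.46 ± 0.28), WT 1 h (8.40 ± 0.24), KO 10 h (5.50 ± 0.26) and WT 10 h (5.26 ± 0.31). Neighbours in this order overlapped, except WT 1 h and KO 10 h. The 10 h response differed between KO and WT by 0.12 ± 0.27, with a 95% interval from -0.45 to 0.69. Because the 10 h values chose the gene, both 10 h differences between the genotypes are given as a description with no test.

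Macrophages are rich in ferroportin, so markers of blood cells were read on the same arrays. The summed signal of 19 macrophage and haematopoietic markers (log2 of the sum of linear values) ran from 13.08 to 14.59 on KO arrays at 10 h, against 13.16 to 14.81 untreated. In WT it ran from 13.35 to 15.24 at 10 h, against 13.79 to 15.36 untreated. At 10 h 0 of the 19 passed in limma in KO, with 0 at an unadjusted p under 0.05, and 1 fell in WT, Mrc1, the mannose receptor of macrophages (-2.15 ± 0.79, limma adjusted p = 0.0452). Over all 13679 tested genes 34.7% passed at 10 h in KO (13.9% higher, 20.7% lower) and 33.7% in WT (14.9% higher, 18.8% lower). The counts of every marker list stand beside these shares, and nothing is read from their difference. None of the 19 was dim on all arrays. Embryo 1 had the highest marker sum of its genotype at every time. Slc40a1 in untreated embryo 1 was 8.77 in KO and 8.65 in WT, in the middle of its group. At 1 h embryo 1 was the lowest in KO (8.24) and in the middle in WT (8.28). At 10 h it was in the middle in KO (5.64) and the lowest in WT (5.03). On the second Slc40a1 probe set untreated embryo 1 was in the middle in KO (8.25) and the lowest in WT (7.64). In bulk RNA, fewer cells of a type cannot be told apart from less RNA per cell. Of 7 erythroid markers tested 1 rose at 10 h in each genotype, the anion exchanger gene Slc4a1 in KO (0.33 ± 0.12, limma adjusted p = 0.0488) and the erythropoietin receptor gene Epor in WT (0.44 ± 0.10, limma adjusted p = 0.0023). The summed erythroid signal ran from 7.70 to 7.87 at 10 h in KO, against 7.61 to 7.70 untreated, and from 7.73 to 8.05 at 10 h in WT, against 7.57 to 7.60 untreated. The globin genes Hba-a1 and Hbb-y were dim on all arrays. Of 5 liver markers tested 0 passed at 10 h in limma in either genotype, with 0 at an unadjusted p under 0.05, and albumin, Alb, was at most 4.32 on any array. Of 3 muscle markers tested 1 rose at 10 h in KO and 2 in WT. Acta1, skeletal actin, rose by 1.98 ± 0.29 in KO and 2.07 ± 0.29 in WT (limma adjusted p = 7.6e-05 and 5.8e-05), and Des, desmin, rose in WT (0.42 ± 0.16, limma adjusted p = 0.0457). The muscle markers Myod1, Myf5 and Myh3 were dim on all arrays. The summed muscle signal ran from 10.52 to 11.15 at 10 h in KO, against 8.88 to 9.63 untreated, and from 10.54 to 11.07 at 10 h in WT, against 8.94 to 9.32 untreated. Of 3 endothelial markers tested 0 passed at 10 h in limma in either genotype, and Pecam1, Tek, Tie1 and Vwf were dim on all arrays. Of 6 epithelial markers tested 3 rose in KO and 2 in WT, among them Krt18 (0.91 ± 0.27 and 1.19 ± 0.27). Of 10 fibroblast markers 1 fell in KO and 2 in WT. The platelet-derived growth factor receptor gene Pdgfra fell in both, with differences of -2.57 ± 0.29 and -2.48 ± 0.29, and the proteoglycan gene Lum fell in WT (-1.34 ± 0.39, limma adjusted p = 0.0157). The summed fibroblast signal, to which the brightest genes contribute most, lay between 16.25 and 16.40 on all arrays. The part of these genes' cells in the level of Slc40a1 was not tested.

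**Figure D2:**
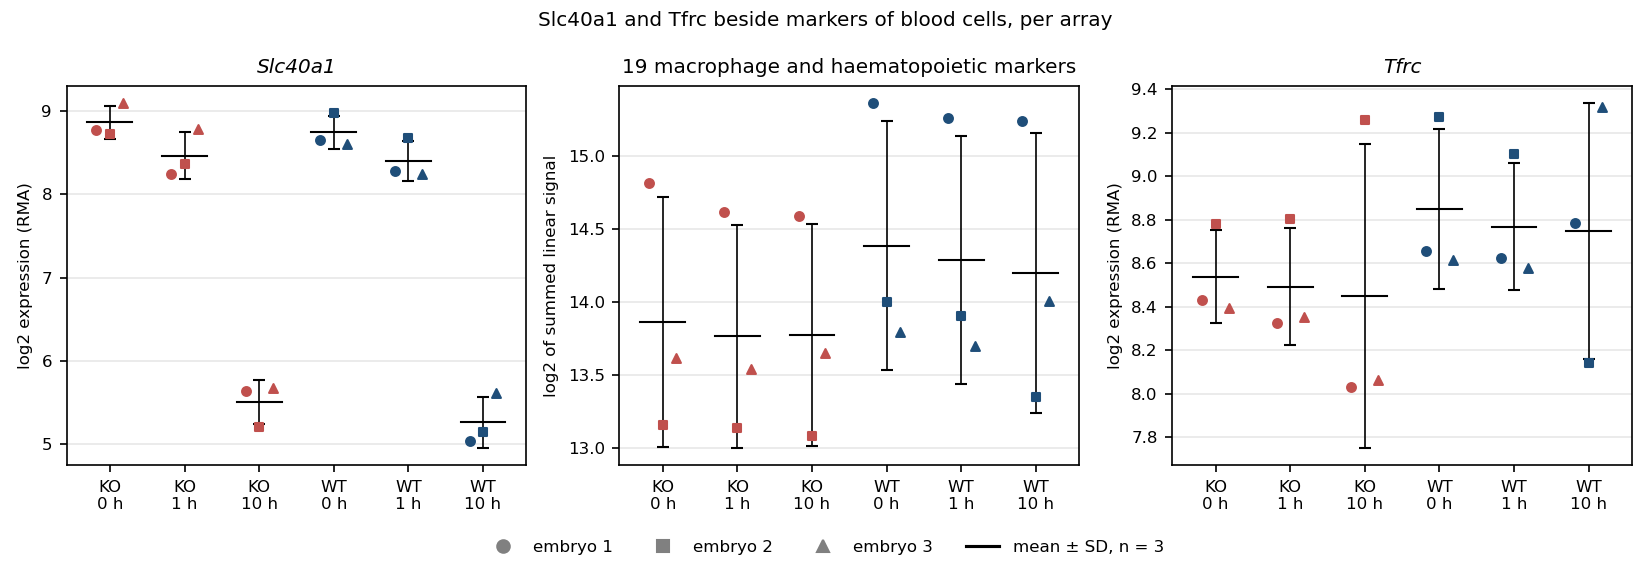
Slc40a1 (left), the summed signal of 19 macrophage and haematopoietic markers (centre) and Tfrc (right) on each array, with embryos as symbols and the mean ± SD of 3 arrays. The marker sum was highest in embryo 1 of each group, from 14.59 to 15.36, and Tfrc was highest in embryo 2 of each group except WT at 10 h.

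The genes whose brightest probe set followed Slc40a1 most closely over the 18 arrays were Dbp (Pearson r = 0.988), a clock-controlled transcription factor gene, Diras2 (0.982), a small GTPase gene, Zfand1 (0.979), Lifr (0.979), the receptor gene of leukaemia inhibitory factor, and Wdr6 (0.979). The 18 points share embryos and a large 10 h step, so high values are reached by many genes that fell at 10 h.

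Slc39a14 encodes ZIP14, a membrane carrier that takes up iron not bound to transferrin, along with zinc and manganese. It was higher after 10 h of TGF-β1 in both genotypes. In KO cells it read 7.99, 7.71 and 7.88 untreated, 8.05, 8.01 and 8.06 at 1 h, then 9.01, 8.86 and 8.95 at 10 h. In WT cells it read 7.72, 8.07 and 7.93 untreated, 7.81, 7.79 and 8.11 at 1 h, then 8.95, 8.44 and 8.90 at 10 h. All 6 arrays at 10 h lay above all 12 others. The rise from untreated cells was 1.08 ± 0.13 in KO, or 2.11-fold (limma adjusted p = 1.7e-05), and 0.85 ± 0.13 in WT, or 1.81-fold (1.6e-04). At 1 h it was 0.18 ± 0.13 in KO and -0.01 ± 0.13 in WT (limma adjusted p = 1.00 each). In KO all 3 arrays at 1 h lay above the 3 untreated ones, but narrowly, with 8.01 as the lowest against 7.99. On the next probe sets in brightness the KO values overlapped, with means of 6.70 at 1 h against 6.58 untreated and of 5.84 against 5.87. The dimmest did not overlap, at 3.77 against 3.70. How many of all genes separate in this way was not counted, here or for the other members.

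The rise was seen on 3 of the 4 Slc39a14 probe sets. Besides the brightest, the other pair gave 0.97 ± 0.28 and 1.16 ± 0.18 in KO and 0.94 ± 0.28 and 0.81 ± 0.18 in WT, with limma adjusted p over all probe sets of 0.0267 and 2.7e-04 in KO and of 0.0339 and 0.00515 in WT. The fourth was dim, with a mean of 3.79, and gave 0.19 ± 0.12 and 0.14 ± 0.12. Of all 45101 probe sets 15.9% passed at 10 h in KO, 7.22% as higher, and 16.1% in WT, 7.73% as higher. The 10 h response of Slc39a14 was 0.22 ± 0.19 larger in KO than in WT, with a 95% interval from -0.18 to 0.63 (limma adjusted p = 0.999).

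Of the 7 members other than Slc40a1, Slc39a14 was thus the 1 that passed at 10 h in each genotype. Over all 13679 genes 34.7% passed at 10 h in KO (13.9% higher, 20.7% lower) and 33.7% in WT (14.9% higher, 18.8% lower). At 1 h 0 of the 8 passed in limma in either genotype, and 0 of the 8 had an unadjusted p under 0.05. Over all genes 0.49% passed at 1 h in KO and 0.585% in WT. Median differences of the 8 at 10 h were -0.14 in KO and -0.14 in WT, beside -0.03 and 0.01 over all tested genes. The 8 include Slc40a1, which was chosen for its fall, so nothing is read from these medians.

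**Figure D3:**
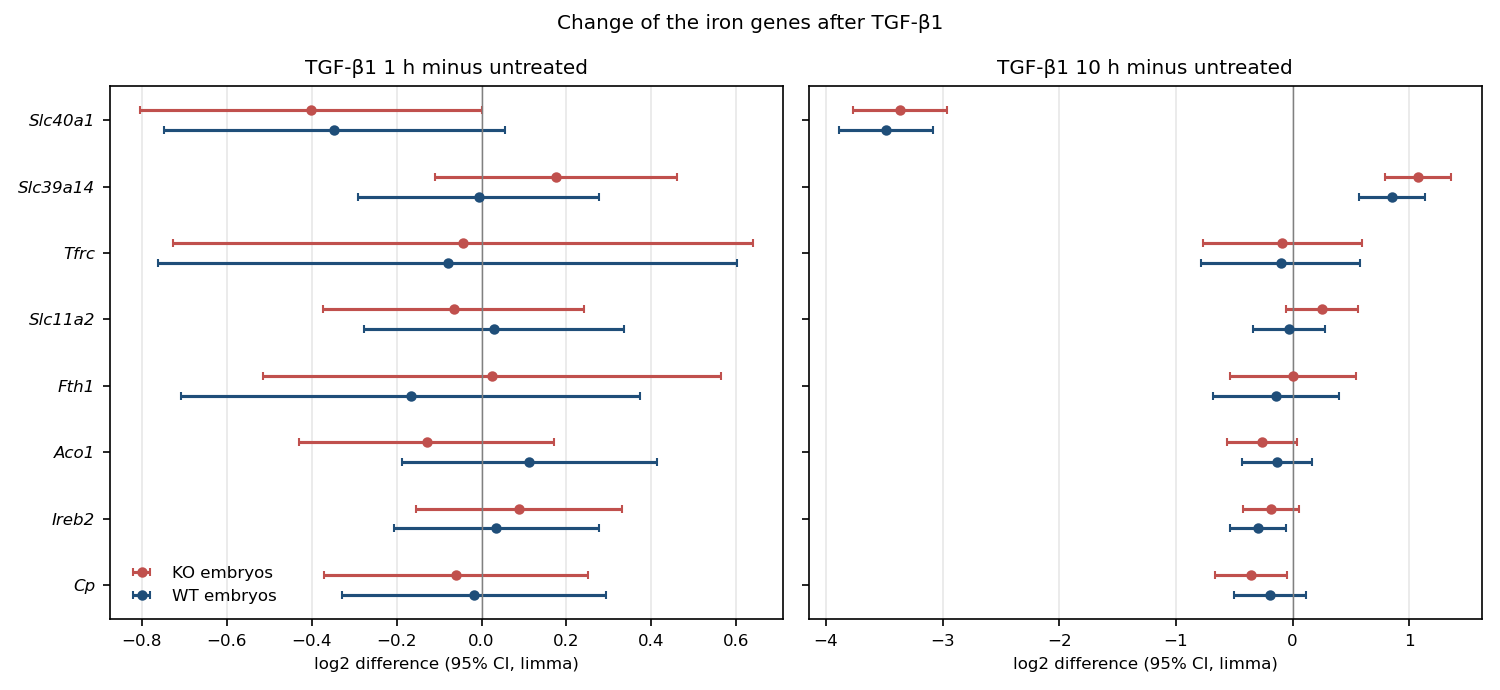
Log2 difference from untreated cells after 1 h (left) and 10 h (right) of TGF-β1, with 95% confidence intervals from limma, in KO and WT embryos (n = 3 each), on different scales. At 10 h Slc40a1 lay at -3.36 in KO and -3.48 in WT and Slc39a14 at 1.08 and 0.85, and the other 6 lay between -0.36 and 0.25.

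Tfrc encodes the transferrin receptor, the main entry of transferrin-bound iron. Its level varied more between embryos than with time. In KO cells it read 8.43, 8.78 and 8.40 untreated, 8.33, 8.80 and 8.35 at 1 h, then 8.03, 9.26 and 8.06 at 10 h. In WT cells it read 8.66, 9.27 and 8.62 untreated, 8.62, 9.10 and 8.58 at 1 h, then 8.79, 8.14 and 9.31 at 10 h. Embryo 2 was the highest of its group at 0 h and 1 h in both genotypes and at 10 h in KO. At 10 h in WT the array labelled embryo 3 was the highest and that labelled embryo 2 the lowest, the same pair of arrays whose order was in doubt above.

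The 10 h difference of Tfrc was -0.09 ± 0.32 in KO, with a 95% interval from -0.77 to 0.60, and -0.10 ± 0.32 in WT, from -0.78 to 0.58 (limma adjusted p = 0.873 and 0.833). Changes within these intervals could not be seen with 3 embryos. KO minus WT was -0.31 ± 0.32 untreated, -0.28 ± 0.32 after 1 h of TGF-β1 and -0.30 ± 0.32 after 10 h, with limma adjusted p of 1.00, 0.943 and 0.958. The other 5 Tfrc probe sets gave 10 h differences between -0.06 and 0.14 in KO and between -0.09 and 0.11 in WT, and 0 of them passed in limma or had an unadjusted p under 0.05. Their means over the 18 arrays were 5.70, 5.28, 4.05, 3.65 and 3.57, and those at 4.05 and lower were dim. The genes that followed Tfrc most closely over the 18 arrays were Acly (Pearson r = 0.918), the enzyme that makes cytosolic acetyl-CoA, Sc5d (0.890), Idi1 (0.883) and Nsdhl (0.857), enzymes of the sterol pathway, and Ugcg (0.875), which makes glucosylceramide. These correlations are over arrays that share embryos.

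Slc11a2 encodes the divalent metal transporter DMT1, which moves iron out of endosomes, and its mRNA is known to exist with different ends. Its probe sets did not give the same result. The brightest read 6.93, 6.82 and 6.93 in untreated KO cells, 6.86, 6.87 and 6.75 at 1 h, then 7.44, 7.09 and 6.92 at 10 h. In WT it read 6.87, 7.18 and 6.64 untreated, 6.83, 6.91 and 7.03 at 1 h, then 6.67, 6.84 and 7.08 at 10 h. Its 10 h difference was 0.25 ± 0.14 in KO and -0.03 ± 0.14 in WT (limma adjusted p = 0.200 and 0.887).

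On the next probe set of Slc11a2, close in brightness, KO cells read 7.54, 7.22 and 6.93 at 10 h against 6.69, 6.88 and 6.16 untreated, and WT cells read 6.87, 7.33 and 7.44 at 10 h against 6.50, 6.98 and 6.62 untreated. The 10 h values lay above all untreated ones in KO and overlapped them in WT. The differences were 0.66 ± 0.21 in KO and 0.51 ± 0.21 in WT (limma adjusted p over all probe sets = 0.0432 and 0.115). The third probe set read 6.30, 6.40 and 5.95 at 10 h against 5.73, 5.66 and 5.72 untreated in KO, and 5.84, 6.40 and 6.30 against 5.80, 5.54 and 5.42 in WT. It rose by 0.52 ± 0.15 in KO and by 0.59 ± 0.15 in WT (0.0302 and 0.0143 as limma adjusted p over all probe sets), with no overlap in either genotype. With the mean over its 4 probe sets in place of the brightest, Slc11a2 passed at 10 h in KO (0.42 ± 0.12, limma adjusted p = 0.0102) and not in WT. The transcript ends that each probe set reads were not determined here.

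**Figure D4:**
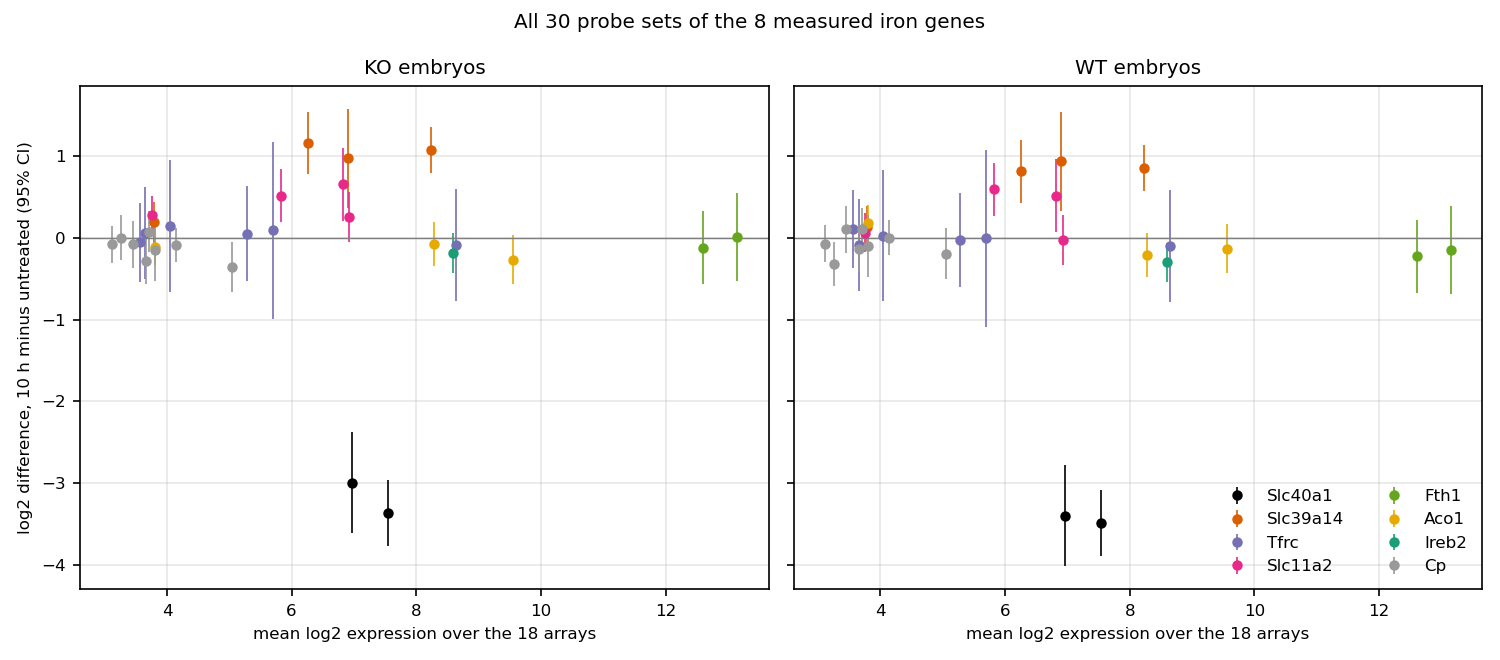
Log2 difference at 10 h from untreated cells against mean log2 expression for all 30 probe sets of the 8 genes, in KO (left) and WT (right), with 95% confidence intervals from the fit over all probe sets. Both Slc40a1 probe sets lay at or below -2.99, 3 of the 4 Slc39a14 probe sets lay above 0.8, and the Slc11a2 probe sets were spread from -0.03 to 0.66.

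Fth1 encodes the heavy chain of ferritin, the subunit that oxidises iron for storage. It was bright on all arrays, from 12.68 to 13.80. In KO cells it read 13.38, 13.28 and 12.68 untreated, 13.37, 13.26 and 12.79 at 1 h, then 13.80, 12.83 and 12.73 at 10 h. In WT cells it read 13.32, 13.37 and 13.15 untreated, 13.30, 13.06 and 12.98 at 1 h, then 13.44, 12.84 and 13.11 at 10 h. Embryo 1, the one with the most macrophage marker signal, had the highest Fth1 value of its group in 5 of the 6 groups, and the part of those cells in the level was not tested. The 10 h differences were 0.01 ± 0.25 in KO and -0.15 ± 0.25 in WT (limma adjusted p = 0.992 and 0.688). The second Fth1 probe set gave -0.12 ± 0.21 and -0.23 ± 0.21. Ferritin heavy chain has processed copies in the genome, and the name of the brightest probe set marks it as matching more than 1 transcript, so its signal may not be Fth1 alone.

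Aco1 and Ireb2 encode the iron regulatory proteins IRP1 and IRP2. IRP1 doubles as cytosolic aconitase when it holds an iron-sulphur cluster, and IRP2 is degraded when iron is plentiful. RefSeq promoter entries (assembly GRCm38.p6) were found for 6 of the 9 genes, Tfrc, Fth1, Ftl1, Aco1, Ireb2 and Cp, in 9 windows. Because NFI factors and SMADs bind DNA, the 250 bases before each start were searched on both strands for TTGGCA (a single NFI arm), the full NFI palindrome (which can overlap that arm), the SMAD elements CAGACA and GTCTAGAC, TGANNNNGC (antioxidant response core) and the E-box CACGTG. These occurred in 12.3%, 0.0365%, 17.1%, 0.167%, 35.2% and 6.02% of 32851 windows of the same length. Among the 9 windows Aco1 alone held a match, an NFI arm from base -10 to -5 and an antioxidant response core from base -67 to -59 before the start, both on the minus strand relative to the gene. The loop CAGTGN of iron-responsive elements was searched on the sense strand of the 50 bases after the start. It was in 0 of the 9 windows, against 7.08% of all windows. Elements further along a transcript lay outside this search, and Slc40a1, Slc11a2 and Slc39a14 had no window. The search therefore cannot tell whether the members carry the element. The Aco1 window (chr4:40143015-40143264, plus strand) is shown with its matches in capitals, beside the Ireb2 window (chr9:54863505-54863754, plus strand), which holds none of the 6 motifs.
Aco1: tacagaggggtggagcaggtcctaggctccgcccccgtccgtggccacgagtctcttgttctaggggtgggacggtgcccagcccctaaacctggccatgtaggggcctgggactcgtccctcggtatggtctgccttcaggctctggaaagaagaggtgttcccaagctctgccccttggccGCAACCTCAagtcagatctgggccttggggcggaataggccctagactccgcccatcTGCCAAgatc
Ireb2: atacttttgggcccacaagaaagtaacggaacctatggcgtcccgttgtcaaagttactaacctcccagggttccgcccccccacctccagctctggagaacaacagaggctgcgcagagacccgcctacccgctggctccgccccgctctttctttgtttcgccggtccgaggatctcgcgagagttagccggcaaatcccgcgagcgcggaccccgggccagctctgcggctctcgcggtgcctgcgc

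Neither regulator passed at 10 h against untreated cells. Ireb2 read 8.55, 8.51 and 8.68 in untreated KO cells, 8.53, 8.68 and 8.79 at 1 h, then 8.20, 8.59 and 8.38 at 10 h. In WT it read 8.77, 8.84 and 8.59 untreated, 8.71, 8.84 and 8.75 at 1 h, then 8.62, 8.29 and 8.39 at 10 h. The 10 h difference was -0.19 ± 0.11 in KO and -0.30 ± 0.11 in WT (limma adjusted p = 0.234 and 0.0548). With embryo as a fixed block the WT difference passed (limma adjusted p = 0.0426), a fit that uses the doubtful order of the 10 h arrays. Set against 1 h, Ireb2 was lower at 10 h by 0.27 ± 0.11 in KO, short of the threshold (0.0774), and fell by 0.33 ± 0.11 in WT (limma adjusted p = 0.0339), where no values overlapped. Without WT embryo 2 or 3 the WT fall against 1 h no longer passed (limma adjusted p = 0.281 and 0.138). Over all genes 33.4% passed between 10 h and 1 h in KO and 33.3% in WT.

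Aco1 averaged 9.39 ± 0.22 at 10 h in KO against 9.66 ± 0.10 untreated (SD, n = 3 each), and 9.46 ± 0.22 against 9.59 ± 0.10 in WT. The KO values at 10 h all lay below the untreated ones, and the WT values overlapped. The differences were -0.27 ± 0.14 and -0.13 ± 0.14 (limma adjusted p = 0.165 and 0.502). A second, dimmer Aco1 probe set gave -0.08 ± 0.13 in KO and -0.21 ± 0.13 in WT. No difference between the genotypes was detectable for Aco1 at this number of arrays, with KO minus WT at 0.07 ± 0.14 untreated, -0.17 ± 0.14 after 1 h and -0.06 ± 0.14 after 10 h, with limma adjusted p of 1.00, 0.928 and 0.978.

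Cp encodes ceruloplasmin, the copper enzyme that oxidises iron as it leaves the cell. Its signal was low. The brightest of 8 probe sets had a mean of 5.04 and the other 7 had means between 3.11 and 4.14. It averaged 4.91 ± 0.03 at 10 h in KO against 5.26 ± 0.30 untreated, and 4.84 ± 0.22 against 5.03 ± 0.11 in WT (SD, n = 3 each). The 10 h differences of -0.36 ± 0.15 and -0.19 ± 0.15 did not pass (limma adjusted p = 0.0713 and 0.327). The KO difference passed with embryo as a fixed or a random block (limma adjusted p = 0.0224 and 0.0349). It also passed without KO embryo 2 (-0.54 ± 0.14, limma adjusted p = 0.0107). The other 7 probe sets ranged from -0.28 to 0.08 in KO, and 0 of them passed in limma or had an unadjusted p under 0.05 there.

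No member passed the test between the genotypes. At all 3 times 0 of the 8 passed between KO and WT in limma, and 0 of the 8 had an unadjusted p under 0.05. Over all genes 0% passed in the same fit. The mean of the 3 conditions per embryo gave the largest difference for Tfrc, at -0.29 ± 0.18 (limma adjusted p = 0.976). The WT embryo means use the doubtful order of the 10 h arrays, so this standard error depends on it. The 1 h and 10 h responses differed between the genotypes for 0 of the 8. For Slc40a1 the 10 h entries in these counts are description alone, because its 10 h values chose it. The 95% interval of the difference in the 10 h response was widest for Tfrc, from -0.95 to 0.98, and Fth1, from -0.61 to 0.91, and differences inside these intervals could not be seen.

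Wider lists of iron genes were read in the same fit. In the transferrin cycle and endosomal reduction list, 1 of 12 tested genes rose and 2 fell at 10 h in KO, and 1 rose and 0 fell in WT. The gene that rose in both was Steap1, a metalloreductase relative, by 0.54 ± 0.19 in KO and 0.60 ± 0.19 in WT (limma adjusted p = 0.0367 and 0.0226). Of 12 iron oxidase and hepcidin pathway genes 3 rose and 2 fell in KO, and 4 rose and 1 fell in WT. Those named by the rule were SMAD pathway genes that TGF-β also acts on in general, Smad7 at 1.11 ± 0.10 and 1.28 ± 0.10, Acvr1 at 0.84 ± 0.12 and 0.73 ± 0.12 and Id1 at 0.58 ± 0.22 and 0.77 ± 0.22 in KO and WT. At 1 h 3 of 12 had risen in each genotype, Smad7, Smad6 and Id1, beside 0.417% of all genes higher in KO and 0.504% in WT.

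Of 12 genes of iron chaperones, ferritin turnover and iron sensing 2 rose and 4 fell in both genotypes. The kinase gene Cdc42bpa rose by 0.69 ± 0.09 in KO and 0.56 ± 0.09 in WT, and Zfp36, an mRNA decay factor gene, by 0.93 ± 0.22 and 0.81 ± 0.22. Hif1a, the hypoxia factor gene, fell by 0.73 ± 0.12 and 0.75 ± 0.12, and Skp1, a ubiquitin ligase subunit gene, fell by 0.53 ± 0.14 and 0.50 ± 0.14. Ncoa4, the receptor that delivers ferritin for breakdown, was at -0.04 ± 0.15 in KO and -0.37 ± 0.15 in WT (limma adjusted p = 0.881 and 0.0614), a gene picked after its values were seen.

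Among 22 genes of mitochondrial iron and iron-sulphur clusters 4 rose and 6 fell in KO, and 5 rose and 5 fell in WT. Abcb10, a mitochondrial inner membrane transporter gene, rose by 1.14 ± 0.09 in KO and 0.91 ± 0.09 in WT (limma adjusted p = 1.1e-07 and 1.2e-06). The cluster assembly genes Hscb, Isca2 and Nfs1 fell, Hscb by 1.04 ± 0.14 and 0.83 ± 0.14, Isca2 by 0.42 ± 0.08 and 0.32 ± 0.08 and Nfs1 by 0.43 ± 0.09 and 0.27 ± 0.09. Of 8 haem synthesis genes 1 rose and 3 fell in each genotype. Urod fell by 0.55 ± 0.09 in KO and 0.47 ± 0.09 in WT and Fech, which inserts the iron, fell by 0.36 ± 0.08 and 0.30 ± 0.08, while Cpox rose by 0.66 ± 0.21 and 0.81 ± 0.21.

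Of 15 genes of haem breakdown and transport 0 rose and 5 fell in KO, and 1 rose and 5 fell in WT. The haem carrier gene Slc48a1 fell by 0.59 ± 0.13 in KO and 0.73 ± 0.13 in WT, Hebp2 fell by 0.54 ± 0.10 and 0.36 ± 0.10, and the constitutive haem oxygenase gene Hmox2 fell by 0.42 ± 0.14 and 0.53 ± 0.14. The inducible Hmox1 was at 0.48 ± 0.28 and 0.20 ± 0.28 and did not pass (limma adjusted p = 0.214 and 0.618), also a gene picked after its values were seen. Of 13 NRF2 and BACH1 factors and targets 4 rose and 3 fell in KO, and 4 rose and 1 fell in WT. Those named by the rule were the small Maf partners, Maff at 1.89 ± 0.21 and 1.73 ± 0.21, Mafk at 0.58 ± 0.10 and 0.71 ± 0.10 and Mafg at 0.47 ± 0.12 and 0.49 ± 0.12 in KO and WT.

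Of 21 other ZIP and ZnT metal carriers and metallothionein genes, relatives or partners of Slc39a14, 8 rose and 2 fell in KO, and 6 rose and 2 fell in WT. Slc30a7 rose by 0.79 ± 0.13 and 0.40 ± 0.13, Slc30a5 by 0.56 ± 0.10 and 0.60 ± 0.10, and Slc39a2 by 1.17 ± 0.23 and 0.83 ± 0.23 in KO and WT. The metallothionein gene Mt1, picked after its values were seen, fell by 1.51 ± 0.44 and 1.43 ± 0.44 (limma adjusted p = 0.0139 and 0.0197). At 1 h 0 genes of these lists passed in limma, apart from 3 of the hepcidin pathway list and Mafk of the NRF2 list, which rose in both genotypes. The counts of these lists at 10 h are given beside the 34.7% and 33.7% of all genes that passed, and nothing is read from their difference.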

How the data were processed

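The deposited values are log2 expression summaries of Affymetrix arrays, 1 value for each probe set of an array. The authors' log2 values were made by RMA (named in the submitters' processing notes, without a version). The log2 scale was read from their range. They were used as deposited.

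Symbols came from the array's annotation table, updated by Entrez number. Each gene was read from its brightest single-symbol probe set (18194 genes) and tested if 3 or more arrays read it higher than their own 40th percentile (13679 genes). limma 3.58.1 in R 4.3.3 fitted 6 group means over 18 arrays with 12 residual degrees of freedom. Two-sided p values were adjusted by Benjamini-Hochberg over all tested genes, threshold 0.05. All probe sets were fitted likewise.

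The labels give embryos as replicates, so the spread in the main fit is that between embryos within a group. The main fit treated all 18 arrays as independent, so its p values leave out that arrays share embryos. Fits with embryo as a block are among the alternatives. Cultures of 1 genotype that share a number in their titles were taken as coming from 1 embryo. Deviations from the group means correlated at 0.592 to 0.763 between untreated and 1 h arrays of an embryo, and at 0.282 to 0.388 between untreated and 10 h arrays in KO, but at 0.487, -0.06 and -0.20 in WT.

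The named genes are all members, those among a list's top 4 by the smaller of both genotypes' adjusted p at 10 h that passed in both, and the 5 genes most correlated with Slc40a1 and with Tfrc. Members and lists were chosen with earlier results of these data known. The 16 alternatives changed the block, filter, probe set, normalization, groups fitted or embryos.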

Additional observations from a re-analysis of the deposited data

How the results depend on the processing

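With embryo as a fixed replicate block Cp in KO (-0.36, limma adjusted p = 0.0224) and Ireb2 in WT (-0.30, 0.0426) also passed at 10 h, and the pairing changed no other call among the members in the within-genotype comparisons with untreated cells. Over all 13679 genes the block called 5509 at 10 h in KO and 5492 in WT, against 4745 and 4614 without it. With the replicate number as a block across the genotypes 0 members passed between KO and WT, as without it. Over all genes this block called 0 untreated, 1 at 1 h and 6 at 10 h. Deviations of KO and WT arrays of the same number correlated at 0.0729 to 0.541 untreated and 0.104 to 0.487 at 1 h. At 10 h they correlated at -0.198 to 0.135. The 10 h difference of Slc40a1 ranged from -3.48 to -3.18 in KO and from -3.73 to -3.31 in WT over 15 alternatives, and that of Slc39a14 from 0.85 to 1.11 and from 0.66 to 1.10, with its call kept in each. Ireb2 in WT at 10 h also passed with embryo as a random block, with the stricter filter and with the mean over probe sets (limma adjusted p = 0.0326, 0.0495 and 0.0489). Against 1 h Ireb2 in WT lost its call in 4 alternatives. Cp in KO at 10 h also passed with the random block (limma adjusted p = 0.0349). Against 1 h in KO, Slc11a2 passed with the mean over probe sets (limma adjusted p = 0.00754). Ireb2 passed there with the random block and Cp without KO embryo 2 (limma adjusted p = 0.0489 and 0.0314). Cp was not tested with the mean over probe sets, which fell below the filter. No call changed direction. The precision is limited by 3 embryos per group, and the half-width of the 95% interval was 0.27 for the median gene.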
